A study of Mus musculus with 5 samples.

Results

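The 365 piRNAs described here begin with A, C or G, and they are a minority of the 4222 piRNAs that the authors listed as changed in testes of Mtdh-/- mice. The other 3857 listed piRNAs begin with T. The members were selected on measured values: each passed a 2-fold difference between 1 Mtdh-/- library and the mean of the wild-type libraries in at least 1 of 6 deposited tables. They were then kept for their first base alone, at any length. Differences between genotypes below therefore describe how the members were chosen and carry no test.

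The study profiled small RNAs of whole testis in C57BL/6 mice at 6 months of age. It had 3 Mtdh-/- libraries and 2 wild-type libraries. The series title describes the mutants as deficient in exon 3 of Mtdh, which encodes metadherin, a membrane protein. The labels do not say whether the libraries came from separate animals, so spread between them may be technical. The targeted gene could not be checked, because no messenger RNA was measured.

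PIWI-interacting RNAs (piRNAs) are small RNAs of germ cells that guide PIWI proteins to transposons and other transcripts. Most mature piRNAs begin with U, written T in the files. In the ping-pong cycle a guided PIWI protein cuts its target opposite bases 10 and 11 of the guide, and the cut end becomes the start of a new piRNA. A partner made this way from a guide that begins with U overlaps the guide by 10 bases at the 5′ end and carries A at base 10. A piRNA that lacks U at its first base and has A at base 10 therefore has the textbook form of such a partner.

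The members that carry the results are shown 5′ to 3′, with bases 1 and 10 in capitals. The first 2 were the only members listed as higher in all 3 Mtdh-/- libraries, the next 2 were listed as lower in all 3 with the largest folds, and the last 3 had the highest value in any library.
mmu_piR_022877: CtgaaatgaAgagaatactcttgctgatc
mmu_piR_000219: AcgggaaacCtcacccggcccggacac
mmu_piR_018626: AcatgatggTatcgtggcctaattcccaa
mmu_piR_025413: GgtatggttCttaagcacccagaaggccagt
mmu_piR_026310: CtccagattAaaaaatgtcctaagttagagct
mmu_piR_011882: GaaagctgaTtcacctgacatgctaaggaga
mmu_piR_000691: CtgggaataCcgggtgctgtaggctt

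First bases were spread evenly among the members. C opened 128 piRNAs (35.1%), G opened 127 (34.8%) and A opened 110 (30.1%). Base 10 was uneven: A stood there in 159 of 365 members (43.6%, exact 95% interval 38.4 to 48.8%). T stood there in 93, C in 57 and G in 56. Among the listed piRNAs that begin with T, A stood at base 10 in 1217 of 3857 (31.6%). The share was close to level across the first bases of the members, at 44.5% for A, 43.8% for C and 42.5% for G. The interval covers counting error only, since piRNAs of 1 precursor are not independent.

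**Figure D1:**
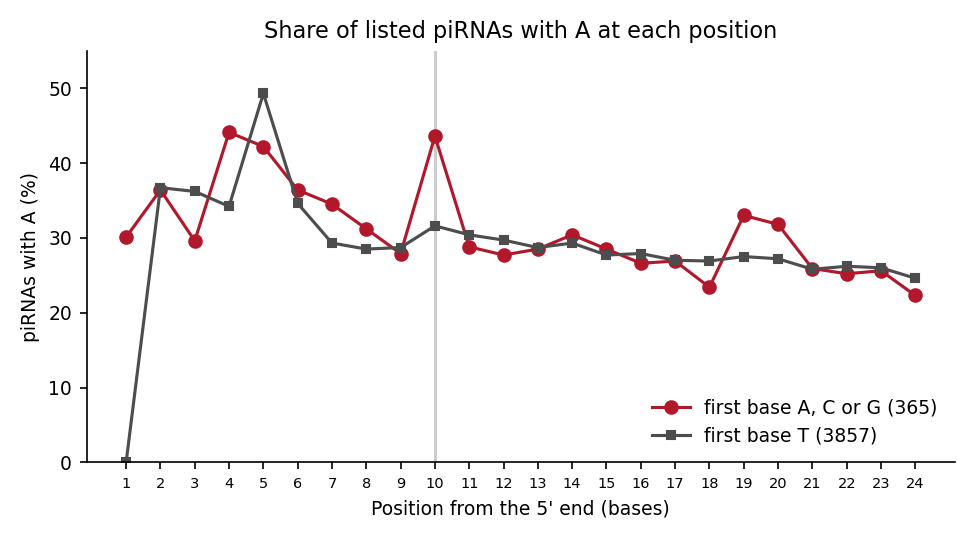
Percent of listed piRNAs with A (y axis) at each base from the 5′ end (x axis), for the 365 members (red circles) and the 3857 listed piRNAs that begin with T (grey squares). Members reach 43.6% at base 10, between 27.9% at base 9 and 28.8% at base 11, and are also high at bases 4 and 5.

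Base 10 stood out from its neighbours in the members, at 43.6% against 27.9% at base 9 and 28.8% at base 11. In the piRNAs that begin with T, the share with A was 31.6% at base 10, 28.7% at base 9 and 30.4% at base 11. A was as frequent near the 5′ end: 44.1% of members had it at base 4 and 42.2% at base 5. The piRNAs that begin with T had 34.2% at base 4 and 49.3% at base 5. The median over positions 2 to 24 other than base 10 was 28.6% in both sets.

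The share with A at base 10 varied with the table that listed the members. It was 36.7% of 79 members listed as higher in Mtdh-/- 1 and 53.3% of 60 listed as lower there. In Mtdh-/- 2 the order was the opposite, with 50.7% of 140 listed as higher and 31.9% of 94 listed as lower. In Mtdh-/- 3 it was 55.9% of 34 listed as higher and 37.8% of 37 listed as lower. In each of these 6 tables the members' share was above that of the piRNAs beginning with T in the same table, by the least in the lower table of Mtdh-/- 2 (31.9% against 29%). No single direction went with A at base 10.

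Both sets had a median length of 30 bases, with quartiles of 29 and 31. Lengths of 29 to 31 bases made up 264 members (72.3%), against 3057 of those beginning with T (79.3%). Members under 24 bases numbered 10 (2.74%), against 17 (0.441%) of the others. The members ran from 16 bases, mmu_piR_039114, to 38 bases, mmu_piR_038945. A at base 10 was found in 5 of the 10 shortest members, in 19 of 64 members of 24 to 28 bases (29.7%), in 119 of 264 of 29 to 31 bases (45.1%), and in 16 of 27 longer ones (59.3%).

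**Figure D2:**
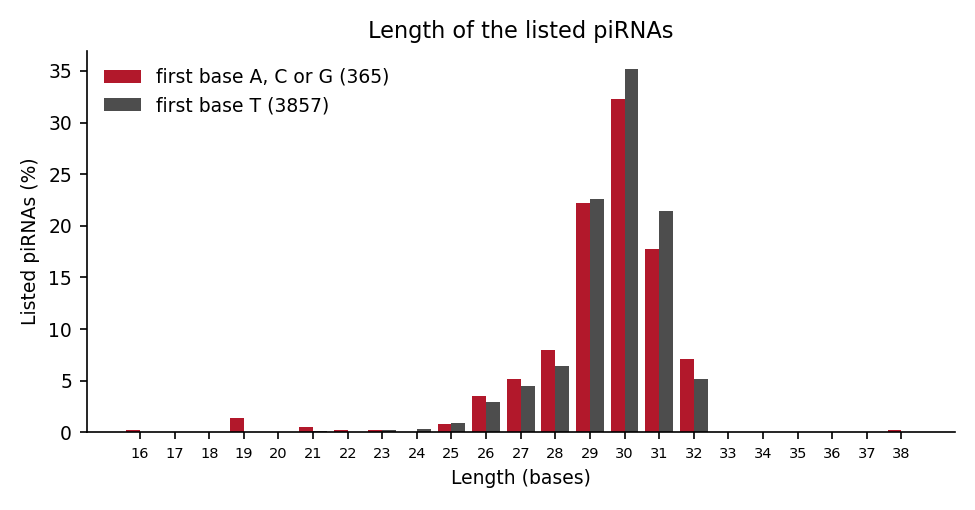
Percent of listed piRNAs (y axis) at each length in bases (x axis) for the 365 members (red) and the 3857 listed piRNAs that begin with T (grey). Both peak at 30 bases, and members hold 2.74% under 24 bases against 0.441%.

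A 10-base overlap of 5′ ends on opposite strands, as ping-pong partners have, linked 16 members (4.38%) to another listed piRNA. All 24 pairs had a partner that begins with T, and there were 20 distinct partners. That all 16 members have A at base 10 follows from the pairing and is no separate observation. Among the piRNAs beginning with T, 76 (1.97%) had such a partner. The 20 partners of members are among these 76, so the shares of the sets are not independent. A pair with a partner that begins with T also requires A at base 10, which members had more often. Members with an overlap of 8 bases numbered 37 (10.1%), more than at 10 bases. Members with an overlap of 9 bases numbered 9, and none had an overlap of 11 bases. An overlap of 12 bases was found for 1 member and of 13 bases for 3. One further member, whose first 10 bases are their own reverse complement, was left out.

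**Figure D3:**
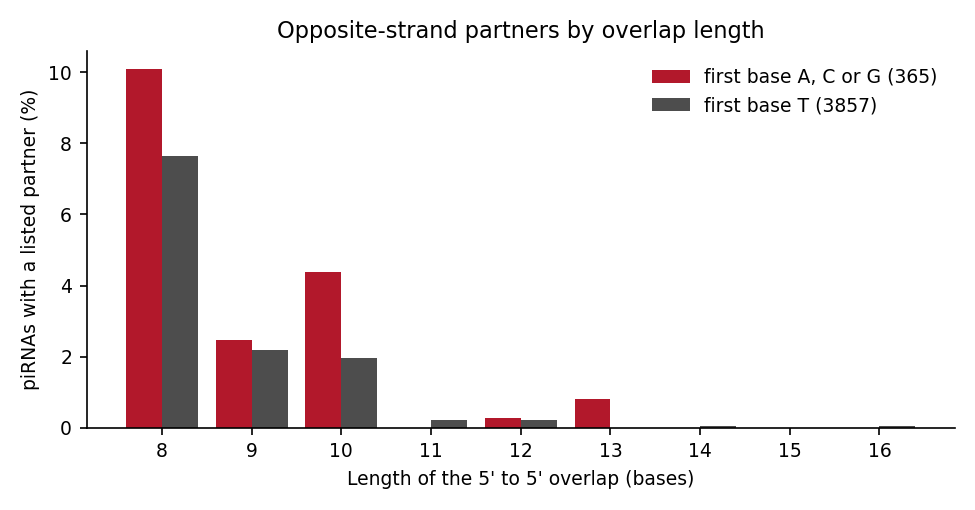
Percent of listed piRNAs (y axis) whose first bases are the reverse complement of the first bases of another listed piRNA, by overlap length in bases (x axis), for the 365 members (red) and the 3857 that begin with T (grey). For members the share is 10.1% at 8 bases, 2.47% at 9, 4.38% at 10 and 0 at 11.

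The pairs below are shown because they hold the most abundant of the 16 members; the first 10 bases, which pair with those of the partner, are in capitals.
mmu_piR_026310: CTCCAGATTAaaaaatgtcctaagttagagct
its partner mmu_piR_007393: TAATCTGGAGaaaagtcatggtgtcagtt
mmu_piR_009969: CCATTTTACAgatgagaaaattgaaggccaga
mmu_piR_027596: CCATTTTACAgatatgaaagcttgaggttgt
their partner mmu_piR_018330: TGTAAAATGGagatatattacctaccttgg
their partner mmu_piR_034864: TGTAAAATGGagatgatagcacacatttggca
mmu_piR_030415: ATGCTTTGTAccctgtgacaccacca
its partner mmu_piR_028084: TACAAAGCATggtggtctgtgcatagggaa
mmu_piR_024611: CTGTTTCTTActgaagcgtgattagcctgt
its partner mmu_piR_032631: TAAGAAACAGaagtgtgtctgcagaacaga

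The most abundant member of all, mmu_piR_026310, had a deposited value of 16434.3 in Mtdh-/- 2, against 3551.1 and 3671.4 in the wild-type libraries. Its partner mmu_piR_007393 had 16.8 in Mtdh-/- 2, against 11.6 and 112.1 in wild type. The member was listed as higher and its partner as lower, although the partner lay between the wild-type libraries. The tables give no value of this member for the other Mtdh-/- libraries, where it did not pass the 2-fold threshold.

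mmu_piR_009969 and mmu_piR_027596 open with the same 10 bases and share 4 partners. That 10-base run or its reverse complement lies in 4 members (1.1%) and in 4 piRNAs beginning with T (0.104%). All pairs of mmu_piR_009969 and mmu_piR_027596 thus rest on 1 run. mmu_piR_009969 had 893.1 in Mtdh-/- 2, against 301.4 and 266 in wild type, and mmu_piR_027596 had 465.3, against 135.9 and 69.6. Both were listed for Mtdh-/- 2 alone. Their partner mmu_piR_034864 had 37.3, 25.2 and 31.8 in the Mtdh-/- libraries, against 39.5 and 364.7 in wild type. That partner was high in wild type 2 alone. The most abundant shared partner, mmu_piR_005522, had 661 in Mtdh-/- 1 and 188.6 in Mtdh-/- 2, against 1250.9 and 2439.9 in wild type. It was below both wild-type libraries in each.

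mmu_piR_030415 had 99.4 in Mtdh-/- 1 and 754.5 in Mtdh-/- 2, against 460.8 and 133.7 in wild type, and was listed as lower in the first and higher in the second. mmu_piR_024611 had 525.7 in Mtdh-/- 1, against 81 and 58.7 in wild type. mmu_piR_014695 had 240.8 in Mtdh-/- 3, against 134.3 and 82.6 in wild type. Of the 24 pairs, 14 had both partners in a table of the same library: 12 with opposite directions and 3 with the same direction, 1 pair counting in both. The pairs share members and both wild-type libraries, so these counts are a description.

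On the same strand, 136 members (37.3%) overlapped another listed piRNA by at least 14 identical bases. The 5′ end of 47 members (12.9%) lay 1 to 3 bases from that of a listed piRNA beginning with T. mmu_piR_018942 begins 1 base upstream of mmu_piR_034136, which had 69.3 in Mtdh-/- 1, against 154.1 and 250.1 in wild type; the member had 113.9, against 365.2 and 673.7. Such neighbours were listed together 56 times and had the same direction in 55. Neither headers nor labels say how reads in the overlap were assigned, so the neighbours may not be separate measurements. A stood at base 10 in 53.2% of these 47 members and in 42.1% of the other 318.

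An exact match to an annotated transcript (GENCODE M21, mouse build GRCm38) was found for 69 members (18.9%), against 568 of the piRNAs beginning with T (14.7%). A match on the sense strand to at least 1 noncoding gene that is no structural RNA was found for 39 members (10.7%), against 356 (9.23%). This class takes in provisional gene models and members that match coding genes as well. The gene with most members was Gm21269 (ENSMUSG00000108448.2, chromosome 7), a long noncoding RNA gene that held 9 members and 49 piRNAs beginning with T. Its members were listed as higher 7 times and as lower 3 times. The most abundant of them, mmu_piR_035900 (chr7:73820453-73820482, plus strand), had 231.1 in Mtdh-/- 1, against 96.1 and 76 in wild type. Gm49794 on chromosome 17 and Gm30132 on chromosome 8 held 4 members each.

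Structural RNAs matched 8 members (2.19%, exact 95% interval 0.951 to 4.27%), against 12 of the piRNAs beginning with T (0.311%). Only annotated transcripts were searched, so a structural RNA missing from that annotation could not be matched. These counts are minimums, and the interval does not cover such misses. The 8 were 3 snoRNA, 2 microRNA and 3 ribosomal matches, while the 12 were all microRNA matches. MicroRNA genes alone matched 0.548% of members, against 0.311% of the others. All 3 ribosomal matches lie on the strand opposite to the annotated ribosomal gene CT010467.1. At the same place, mmu_piR_000219 and mmu_piR_000639 lie on the strand of the noncoding gene Gm42418. Whether the matches are sense or antisense to ribosomal RNA itself was therefore not settled here. The piRNA names come from piRNAbank, per the file headers. The 2 members below match microRNA genes, with bases 1 and 10 in capitals.
mmu_piR_000273: AgctggtgtTgtgaatcaggccgtt
mmu_piR_031448: AgttgtgtgTgcatgttcatgt

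mmu_piR_000273 lies in Mir138-1 (chr9:122682898-122682922, plus strand) and had 69 in Mtdh-/- 1, against 4 and 28.4 in wild type. mmu_piR_031448 matches several near-identical genes of the Mir669a family on chromosome 2, among which its reads cannot be placed, and had 88.8 in Mtdh-/- 1, against 2.6 and 32.9. Both were listed as higher in that library alone. mmu_piR_000267 in Snord1a (chr11:116674601-116674632, plus strand), a gene of a small nucleolar RNA that guides methylation of other RNAs, had 6.2 in Mtdh-/- 1 and 2.1 in Mtdh-/- 2, against 11.9 and 88.4 in wild type. mmu_piR_000639 (chr17:39847215-39847245, plus strand) had 20.4 in Mtdh-/- 3, against 5.3 and 4. It lies on the strand opposite to the annotated ribosomal gene CT010467.1 and on the strand of the noncoding gene Gm42418.

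The tissue was checked on microRNA counts of the same libraries. The 8 germ cell microRNAs fixed for this check were detected in all 5 libraries. Scaled to CPM by the total microRNA count of each library, they summed to 101000, 56400 and 119000 in Mtdh-/- 1, 2 and 3, against 148000 and 143000 in wild type. The 3 Mtdh-/- sums all lay below the lower wild-type sum, and Mtdh-/- 2, for which most members were listed, had the lowest. Single microRNAs did not all follow the sum, and most of the 8 overlapped between genotypes as shares of the total. miR-34b-5p had 1460, 141 and 154 counts, against 198 and 421, a larger share in Mtdh-/- 1 and 2 than in wild type. Its share in Mtdh-/- 3 was the lowest. The wild-type libraries also differed: miR-34c-5p had 8353 and 3723 counts there and miR-449a-5p 1009 and 13406, of 118024 and 282019 in all. In whole testis, fewer cells of a type and less RNA per cell cannot be told apart.

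On the same scale the 2 Sertoli cell microRNAs summed to 577, 1290 and 878 in Mtdh-/- testes, against 593 and 1870 in wild type. The striated muscle microRNAs summed to 621, 287 and 2240, against 2000 and 1680. Of these, miR-206-3p had no entry in the deposited counts and was taken as 0. Blood microRNAs summed to 67, 47.8 and 33.8, against 67.8 and 70.9, and the liver microRNA miR-122-5p had 0, 79.6 and 0, against 0 and 24.8. Sertoli, muscle and liver values overlapped between genotypes. The blood value of Mtdh-/- 1 was nearly that of wild type 1 (67 against 67.8), and those of Mtdh-/- 2 and 3 were lower. The blood values rest on 3 to 29 counts in the Mtdh-/- libraries and on 8 and 20 in wild type. Total microRNA counts were 433142, 62825 and 148097 in the Mtdh-/- libraries, against 118024 and 282019, so Mtdh-/- 2 was also the shallowest. The part of cell makeup and depth in the piRNA listings was not tested, and the depth of the piRNA values is unknown.

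The tables listed 139 members for Mtdh-/- 1, of which 79 were higher (56.8%, against 55.3% of all listed piRNAs) and 60 lower. For Mtdh-/- 2 they listed 234, of which 140 were higher (59.8%, against 50% of all listed) and 94 lower. For Mtdh-/- 3 they listed 71, of which 34 were higher (47.9%, against 35.3% of all listed) and 37 lower. The deposited fold was the Mtdh-/- value plus 10 over the mean wild-type value plus 10. Just inside the threshold, mmu_piR_014961 had 21.5 in Mtdh-/- 2, against 7.3 and 4.2 in wild type. Just outside, mmu_piR_024563, known only from a group table, had 18.9, against 4 and 5.3.

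The fold rule itself places every member listed as higher above both wild-type libraries, since its value must exceed their sum. It does not place the members listed as lower below both. Of members listed as lower, the Mtdh-/- value was below both wild-type libraries in 37 of 60 for Mtdh-/- 1, 69 of 94 for Mtdh-/- 2 and 16 of 37 for Mtdh-/- 3. These are 61.7%, 73.4% and 43.2% of the members listed as lower, against 62.5%, 77.8% and 49.5% of all piRNAs listed as lower in Mtdh-/- 1, 2 and 3. Over both directions, the higher ones included by the rule, values lay beyond both wild-type libraries in 83.5%, 89.3% and 70.4% of the listings of Mtdh-/- 1, 2 and 3, against 83.3%, 88.9% and 67.3% of all listed piRNAs. The members' shares were close to those of all listed piRNAs. With wild type 1 as the only reference, without wild type 2, the members still 2-fold lower numbered 32 for Mtdh-/- 1, 34 for Mtdh-/- 2 and 2 for Mtdh-/- 3, and those still higher for Mtdh-/- 3 numbered 11. Without wild type 1, the members still lower for Mtdh-/- 1 also numbered 32.

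The wild-type libraries differed from each other by at least 2-fold, on values plus 10, for 132 of 365 members (36.2%), against 1477 of 3857 piRNAs beginning with T (38.3%). Wild type 2 was the higher for 71 of these members and wild type 1 for 61. Among the 139 members listed as lower in at least 1 table, 96 (69.1%) were 2-fold apart between the wild-type libraries. Among the 233 listed as higher in at least 1 table, 43 (18.5%) were. The wild-type values entered the listing rule, so these shares are a description.

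**Figure D4:**
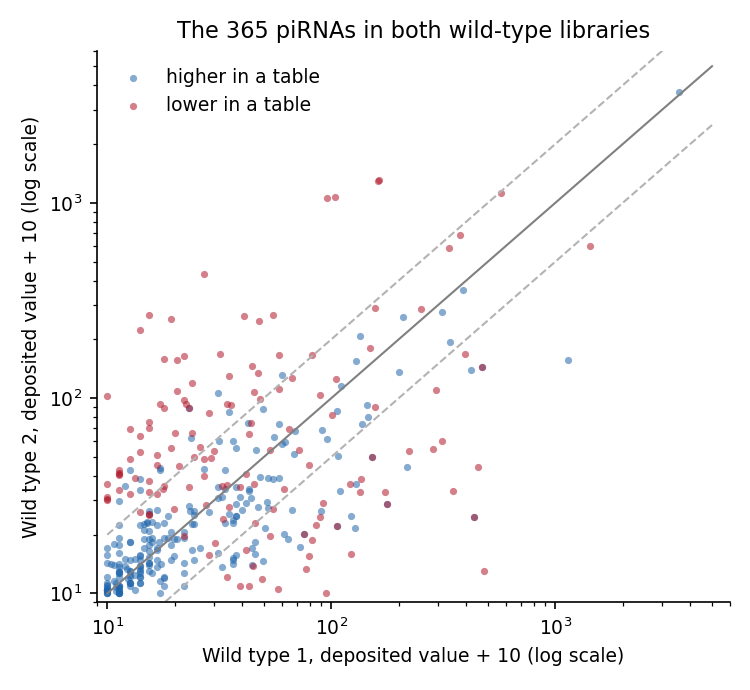
Deposited value plus 10 of each of the 365 members in wild type 1 (x axis) and wild type 2 (y axis), both on log scales, with the line of equality (solid) and 2-fold lines (dashed). Members listed as lower in a table (red) lie outside the dashed lines in 96 of 139 cases and members listed as higher (blue) in 43 of 233.

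Among the higher listings of Mtdh-/- 3, the largest fold was that of mmu_piR_000219 (6.05), which had values in all 3 Mtdh-/- libraries. The other members with the largest folds among the higher listings were given values for 1 or 2 Mtdh-/- libraries. mmu_piR_022612 had 656 in Mtdh-/- 2, against 23.7 and 24.4 in wild type, a fold of 19.6. mmu_piR_032745 had 231.6 in Mtdh-/- 2, against 11.9 and 2.7. In Mtdh-/- 1, mmu_piR_023598 had 421.2, against 40.8 and 11.6, and it was also listed as higher in Mtdh-/- 3 with 72.7.

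mmu_piR_016861 had 222.4 in Mtdh-/- 1, against 14.5 and 16.4 in wild type. mmu_piR_000620 had 14.3 in Mtdh-/- 1 and 43.2 in Mtdh-/- 3, against 1.3 and 0. All 5 besides mmu_piR_000219 were listed on values of 1 or 2 libraries, and the tables give no value for their other Mtdh-/- libraries. Of the other abundant members, mmu_piR_011882 had 1927.3 in Mtdh-/- 3, against 1124.5 and 146.7.

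mmu_piR_000691, which matches the 3′ UTR of Tmem38b (chr4:53860746-53860771, plus strand), had 1699.7 in Mtdh-/- 1, against 329.2 and 183 in wild type. mmu_piR_039291 had 232.7 in Mtdh-/- 2, against 1412.8 and 588.7. mmu_piR_000159 had 192.5 in Mtdh-/- 2, against 152.7 and 1294.8, so it lay between the wild-type libraries although it was listed as lower. mmu_piR_022533 had 416.8, 88 and 430.5 in the Mtdh-/- libraries, against 242.3 and 275.9, and was listed as lower in Mtdh-/- 2. The authors' deposited table that pools Mtdh-/- 1 and 3 lists the same piRNA as higher, with a fold of 1.61.

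Most members were listed for 1 library: 301 of 365 (82.5%), against 3030 of 3857 piRNAs beginning with T (78.6%). Another 49 (13.4%) were listed for 2 libraries, 43 of them in 1 direction. Of the piRNAs beginning with T, 584 (15.1%) were listed for 2 libraries, 482 of them in 1 direction. All 3 libraries listed 15 members (4.11%): 2 higher in each, 12 lower in each and 1 mixed. Of the piRNAs beginning with T, all 3 libraries listed 243 (6.3%): 12 higher in each, 199 lower in each and 32 mixed. Among those listed for all 3 libraries, more were lower in each than higher in each, in both sets. The mixed member, mmu_piR_032979, had 19.1, 60.4 and 519.1 in the Mtdh-/- libraries, against 422.5 and 14.5 in wild type. Both genotypes spanned a wide range and overlapped.

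The 2 members higher in all 3 libraries match structural RNA loci. mmu_piR_000219 (chr17:39847612-39847638, plus strand) had 113.1, 77.6 and 135.2 in Mtdh-/- testes, against 4 and 24 in wild type. It lies in Gm42418, opposite to CT010467.1. mmu_piR_022877, which matches the small nucleolar RNA gene Snord2 inside Eif4a2 (chr16:23108989-23109017, plus strand), had 162.8, 171.9 and 199.9, against 97.4 and 40.4. The genotypes did not overlap for either, which the rule requires of a member listed as higher in all 3. Against wild type 1 alone, without wild type 2, mmu_piR_022877 was under 2-fold and 1 member remained.

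The 12 members lower in all 3 libraries rested on wild type 2, which was at least 2-fold above wild type 1 for all 12. mmu_piR_018626 had 3.4, 2.8 and 0 in Mtdh-/- testes, against 4 and 213.5 in wild type. mmu_piR_025413 had 12.4, 0 and 14.8, against 5.3 and 257.7. For both, wild type 1 was close to the Mtdh-/- libraries.

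The same held for mmu_piR_010391, with 3.7, 0 and 1.1 in Mtdh-/- testes, against 0 and 92.9 in wild type. mmu_piR_039114 had 48.9, 18.5 and 39.6, against 17.1 and 420.7. mmu_piR_020671 had 27.3, 6.3 and 23.9, against 9.2 and 243.9. In each case wild type 2 was far above the other 4 libraries.

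mmu_piR_000689 had 4, 16.4 and 9.7 in Mtdh-/- testes, against 10.5 and 146.2 in wild type. mmu_piR_034292 had 19.2, 13.6 and 15.7, against 8 and 149.2, and mmu_piR_029382 had 16.2, 7.3 and 17.6, against 13.8 and 109.3. Against wild type 1 alone, none of the 36 values of these 12 members was 2-fold lower, 15 were lower by any amount and 20 were higher. Without wild type 2 the count of members lower in all 3 libraries was 0.

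**Figure D5:**
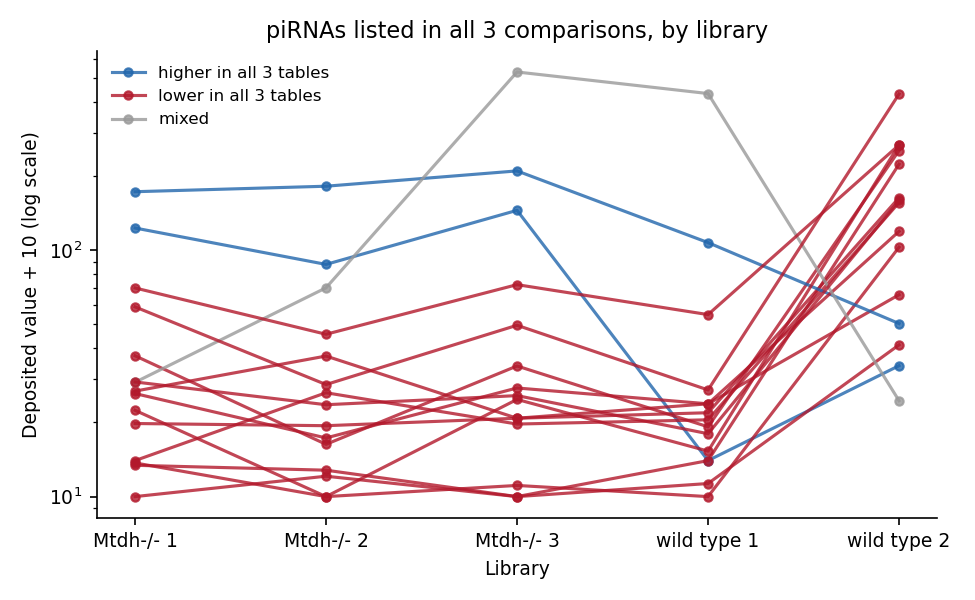
Deposited value plus 10 (y axis, log scale) in each library (x axis) for the 15 members listed for all 3 Mtdh-/- libraries, coloured by direction. The 12 lower members (red) are high in wild type 2 alone, and the 2 higher members (blue) lie above both wild-type libraries in every Mtdh-/- library, as the rule requires.

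Values in all 5 libraries were given for 21 members, those for which the single-library and pooled tables together cover all 3 Mtdh-/- libraries. The genotypes did not overlap in 9 of these (42.9%, against 32.8% of all listed piRNAs with 5 values): 6 higher and 3 lower in Mtdh-/- testes. Selection favoured such a gap, so the share describes the listing. mmu_piR_000362, mmu_piR_000414, mmu_piR_000553, mmu_piR_000670 and mmu_piR_038322 had all 5 values only through the pooled tables. Those tables hold piRNAs that the authors listed as differing between genotypes. For mmu_piR_000219 and mmu_piR_022877 the fold rule fixes the gap. Besides these, the 6 higher ones include mmu_piR_038322, with 29.5, 26.2 and 21 in Mtdh-/- testes, against 6.6 and 4.9. Its overlapping member mmu_piR_000362 had 12.7, 22 and 9.7, against 4 and 2.7. mmu_piR_000670 had 48.1, 58.7 and 41.3, against 27.7 and 14.8.

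mmu_piR_000414 had 6.2, 12.6 and 10.2 in Mtdh-/- testes, against 0 and 0.4 in wild type. Like mmu_piR_000219, it is a ribosomal match opposite to CT010467.1, and mmu_piR_022877 is a snoRNA match. These higher members may thus be fragments of structural RNAs, which was not tested. Of the members matched to structural RNAs, only the snoRNA match mmu_piR_000267 was listed as lower, in Mtdh-/- 1 and Mtdh-/- 2. Members without a match may be such fragments too. Of the lower ones, mmu_piR_000553 had 22.7, 33.5 and 39.2, against 54.6 and 59.8. In mmu_piR_018626 and mmu_piR_016214 the gap to wild type 1 was small: the highest Mtdh-/- value was 3.4, against 4, and 10.8, against 13.8. These 9 were named because their genotypes did not overlap, after their values were seen.

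The authors' deposited tables of pooled Mtdh-/- libraries named 497 piRNAs, of which 45 (9.05%) do not begin with T. In the single-library tables these were 365 of 4222. Of the 45, 19 are members. The authors' deposited table of all 3 libraries held 6 members, 5 higher and 1 lower. The directions of all its piRNAs were not counted here, so this split is no result about the members. Its signed fold was 4.94 for mmu_piR_000219, 2.39 for mmu_piR_022877 and -1.61 for mmu_piR_000553. The test behind the authors' p-values is not stated.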

How the data were processed

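Small RNA libraries of 3 Mtdh-/- and 2 wild-type testis samples were sequenced. Novoalign 2.07.11 is listed in the submitters' processing notes, with no role stated. No header or label names the authors' genome build or how reads were assigned. The deposited piRNA values are called tag counts per the file headers but are not whole numbers, so they were treated as a normalized signal of unknown depth. The deposited fold score was recomputed from them with 10 added and differed by at most 2.46e-07 in relative terms. Of the 8 pooled tables, 7 have a 1.5-fold threshold and 1 has 2.0 per the file headers; their p-values are the authors' and were not used in any comparison. MicroRNA counts, as deposited, served the tissue check alone. In all, 199 per-library columns were not used.

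Members were found with Python 3 scripts tested on simulated sequences, and sequences were matched exactly to GENCODE M21 transcripts on both strands. Unmatched members have no position here, since no genome was searched. Named piRNAs were those listed in 1 direction for all 3 libraries, the most abundant (in all, by first base, by structural class and among 5′ overlaps) and those with the largest folds. The members and lists were chosen with earlier results of these data known.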

Additional observations from a re-analysis of the deposited data

How the results depend on the processing

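No paired analysis was possible because the results come from no test. The folds could only be recomputed among listed members, so a count cannot gain piRNAs that the authors left out. The share with A at base 10 was 40 to 46.5% over 6 alternatives, within its interval, and the median length stayed at 30. The structural share (3.29% with 1 mismatch) also stayed within its interval. Limiting partners to those beginning with T could not change the overlap share, since every partner already does. Adding 1 or 5 in place of 10 changed no count, since a smaller constant can only enlarge the folds of listed members. Adding 50 left 17 higher and 16 lower members in Mtdh-/- 1, 31 and 21 in Mtdh-/- 2, 5 and 8 in Mtdh-/- 3, and 0 higher and 4 lower in all 3. Leaving out each wild-type replicate gave 69 to 71 higher and 32 lower each time in Mtdh-/- 1, 120 to 126 and 34 to 72 in Mtdh-/- 2, and 11 to 32 and 2 to 37 in Mtdh-/- 3; the lowest lower counts of Mtdh-/- 2 and 3, and the 11, came without wild type 2. Over all left-out libraries, members higher in all remaining Mtdh-/- libraries numbered 1 to 10 and lower ones 0 to 27, the lowest of each without wild type 2 and the highest without Mtdh-/- 3; leaving out an Mtdh-/- library asks for agreement in 2 libraries, so more members can pass. With a mean value of at least 20, 5 of 15 members did not overlap between genotypes. Depth is unknown, so low values have no counting interval.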
